A study of Mus musculus with 56 samples.

Results

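The genes described here carry the names of mitochondrial ribosomal proteins and were chosen by name, as every gene of the array whose symbol begins with Mrpl or Mrps followed by a digit. There were 76 such genes among 30199 genes on the array, 47 named for the large subunit (Mrpl) and 29 for the small subunit (Mrps), read by 106 probes. The names are older than the known structure, and a few of these proteins are now placed elsewhere, as given below for Mrps18a, Mrps30 and Mrps36. Their RNA was measured in whole blood of C57BL/6 mice received at 10 to 12 weeks of age, with 1 mouse on each of 56 one-colour arrays. The 90Sr-injected mice received 200 kBq of a strontium chloride solution by tail vein, with 85Sr as a tracer, and the control mice received saline. Blood was taken at day 4 from 4 mice of each condition, and at days 7, 9, 25 and 30 from 6 mice of each condition, a different set of mice each day. All mice of both conditions were wild type by their labels, and no blood cell type was purified.

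Mitochondria keep a small genome of their own, and the mitochondrial ribosome translates the few messenger RNAs it encodes, which specify subunits of the respiratory chain and ATP synthase. Its RNAs come from that genome, but all of its proteins are encoded in the nucleus, made in the cytosol and imported. Many of these proteins have counterparts in bacterial ribosomes, and others are found in mitochondria alone. In blood the mature mouse red cell has no mitochondria, while white cells, platelets and reticulocytes do.

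Of the 76 genes, 75 passed a filter that left out probes not above background, or not uniform, on 25% or more of the arrays. Mrpl35 did not pass it and was well above background on 4 of 56 arrays. A second filter kept probes that deviated at least 1.5-fold from their own median on 20% or more of the arrays, and 58 of the 75 passed it and were tested. That filter favours genes that changed, so values over all 75 detected genes are given beside those of the 58. Levels are log2 signals relative to the median spot of the array. Because probes differ in how brightly they bind, a level between genes is read only as brightness of the probe, not as amount of RNA. Between 14389 and 24698 of the 43020 non-control spots were well above background on an array. The arrays of 90Sr-injected mice tended to be dimmer, with 14389 to 22524 such spots and an array median of 2.87 to 4.22 on the log2 scale, against 17809 to 24698 spots and 3.49 to 4.79 in controls. Each array was centred on that median, and the part of this shift in the values was not tested.

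The upstream regions of 3 of the genes are shown because the first 2 belong to genes that fell at every day and the last to the gene that rose. They are the 250 bases before the RefSeq start site in build GRCm38.p6, read 5′ to 3′ on the strand of the gene, with matches to the letters described afterwards in capitals. Mrpl3 lies at chr9:105053018-105053267 on the plus strand, Mrpl17 at chr7:105811088-105811337 on the minus strand and Mrpl32 at chr13:14613038-14613287 on the minus strand.
Mrpl3: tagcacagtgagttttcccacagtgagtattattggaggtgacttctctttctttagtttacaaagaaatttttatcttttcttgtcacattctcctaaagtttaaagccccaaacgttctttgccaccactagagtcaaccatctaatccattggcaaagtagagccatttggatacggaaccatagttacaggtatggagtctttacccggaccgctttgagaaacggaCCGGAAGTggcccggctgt
Mrpl17: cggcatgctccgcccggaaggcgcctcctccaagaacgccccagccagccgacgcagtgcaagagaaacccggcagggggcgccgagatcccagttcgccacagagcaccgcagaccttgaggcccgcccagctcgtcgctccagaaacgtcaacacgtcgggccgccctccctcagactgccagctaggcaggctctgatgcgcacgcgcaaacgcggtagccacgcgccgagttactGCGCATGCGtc
Mrpl32: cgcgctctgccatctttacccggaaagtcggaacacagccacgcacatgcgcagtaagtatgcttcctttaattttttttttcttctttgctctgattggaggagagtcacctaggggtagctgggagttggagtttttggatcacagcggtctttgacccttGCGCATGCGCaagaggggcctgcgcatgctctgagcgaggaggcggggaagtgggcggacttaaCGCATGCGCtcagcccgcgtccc

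The capitals mark CCGGAAGT, letters bound by ETS factors such as GABPA, in Mrpl3, and GCGCATGCG, letters bound by NRF1, in Mrpl17 and at 2 places in Mrpl32. NRF1 and GABPA are known regulators of nuclear genes for mitochondrial proteins. RefSeq promoter windows, from 250 bases before to 50 bases after the start, were found for 67 of the 76 genes, and both strands were searched. The NRF1 letters, which overlap their own reverse complement, stood in the windows of 7 of 67 genes (10.4%) and of 527 of 27025 genes of the whole table (1.95%). The ETS letters stood in those of 12 of 67 (17.9%) and of 4.31% of all genes. The letters AAGATGGCG, bound by YY1, stood in those of 8 of 67 (11.9%) and of 1.64% of all genes, and CACGTG, the E-box, in 5 of 67 (7.46%) and 8.09%. In all, 26 of the 67 genes had the NRF1, ETS or YY1 letters. Among the 17 genes with a window that were lower at all 5 days, 2 had the NRF1 letters, 2 the ETS letters and 3 the YY1 letters, and among the other 50 these were 5, 10 and 5. The YY1 letters of Mrpl42 and Mrps18a, both lower at all 5 days, lay 27 and 11 bases after the start and are shown in capitals within 30 bases.
Mrpl42: cagattgaagcAAGATGGCGagcgcgcggt
Mrps18a: aggtgcgttccAAGATGGCGgccctcaggg
These matches are letters in a window and were not tested as binding sites.

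Most of the mitochondrial ribosomal protein transcripts were lower in the blood of 90Sr-injected mice than in controls at every day, by about 2-fold. Over the 75 detected genes the median log2 change, taking the 5 days in order, was -0.98, -0.91, -0.97, -1.15 and -0.996. Over all 18797 detected genes the medians were -0.01, 0.00, -0.08, -0.10 and 0.12 on the same scale. The change was negative in 67, 62, 66, 68 and 62 of the 75 genes at the 5 days, and negative in 46.1% to 54.1% of all detected genes. The background differed with probe brightness. In 4 ranges set at the quartiles of level of the 75 genes, from dim to bright, their mean changes had medians of -1.11, -1.26, -0.76 and -0.26. All detected genes in these ranges had medians of 0.24, -0.47, -0.28 and 0.17. These differences were not tested. The spread among the genes was wide, with a standard deviation of log2 changes between 0.55 at day 4 and 0.82 at day 30.

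A gene was called at a day when the limma test of 90Sr against control gave an unadjusted p below 0.001 with a change of at least 2-fold. Of the 58 tested genes, 33 were called lower at day 4, where 23.1% of all genes tested were. On day 7 the count was 30 (16.1% of all genes), on day 9 it was 34 (17.9%), on day 25 it was 47 (26.5%) and on day 30 it was 36 (21.3%). Called higher were, over the 5 days in turn, 0 (2.8% of all genes), 0 (3.47%), 1 (5.45%), 0 (7.49%) and 1 (19.7%). Without the variation filter, 32, 28, 34, 44 and 35 of the 75 detected genes were called lower over the 5 days (17.4%, 12%, 13.7%, 19.8% and 16.1% of all detected genes). By limma at an unadjusted p below 0.05 with no minimum change, 54, 53, 54, 54 and 53 of the 58 were lower (39%, 38.4%, 36.3%, 40.3% and 37.1% of all genes tested). At the same threshold 1, 2, 2, 2 and 3 were higher (26.7%, 30.3%, 18.9%, 33.9% and 36.4% of all genes). The whole 90Sr group lay under the lowest control in 53 of the 58 genes on day 4 (35.9% of all genes), and over the later days in 49 (27.6%), 46 (23.3%), 49 (30.5%) and 25 (16.9%). A call of lower was made at all 5 days for 19 of the 58 genes (8.4% of all genes tested), at 4 days for 12, at 3 for 4, at 2 for 9, at 1 for 7 and at none for 7.

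**Figure D1:**
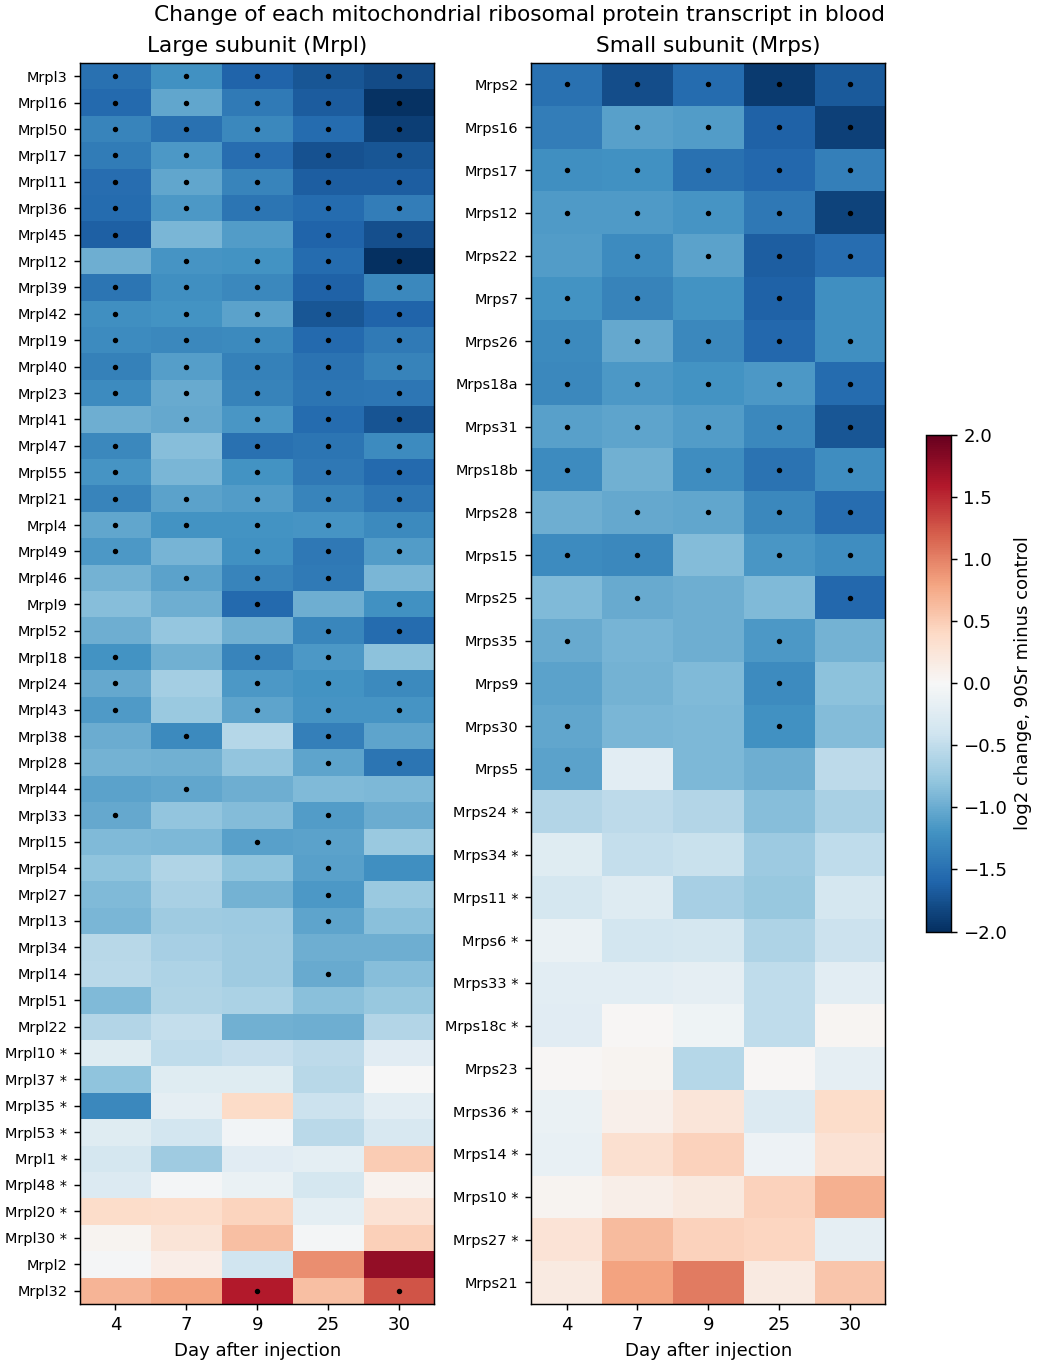
The log2 change (90Sr minus control) of all 76 genes at the 5 days, with Mrpl genes in the left panel and Mrps genes in the right, each ordered by its mean change. Blue is lower and red higher in 90Sr-injected mice, dots mark calls, and asterisks mark the 18 genes not tested, for which the change from a fit without the failed filter is shown. Blue fills most of both panels, and Mrpl32 at the foot of the left panel is the gene with dots on red.

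These counts depended on how arrays were scaled and corrected for background. With each array set on its 75th percentile, 5, 2, 7, 15 and 29 of 47 tested genes were called lower at the 5 days and 0 at all 5. Of all genes 7.95%, 4.94%, 6.43%, 7.9% and 15.7% were called lower, so the day 7 count was no higher than that share. Under this scaling calls over all genes turned from 2345 to 3866 lower and 408 to 2875 higher into 698 to 2221 lower and 2155 to 4253 higher. The median change of the 75 genes was then -0.50 to -0.81, and the median of all detected genes moved to between 0.31 and 0.47. The difference between these medians stayed at -0.89 to -1.12 because that scaling subtracts 1 number from every probe of an array. With normexp background correction limma called 0 of 60 genes lower at each day, where it called 0 to 96 of all 8976 genes. At an unadjusted p below 0.05 it found 11, 33, 32, 0 and 0 lower, and the share of all genes at that threshold is not given here. The median of the 75 genes was below 0 at every day under each scaling and under normexp, where it was -0.11 and -0.12 at the last 2 days. Its difference from the median of all detected genes was smaller under other settings. With slide as a fixed block it was -0.42 at day 25, against -1.05 without a block. With quantile normalization it was -0.70, -0.68, -0.69, -0.76 and -1.01 at the 5 days. With normexp it was -0.58, -0.54, -0.47, -0.18 and -0.24. At day 4 the normexp medians were -1.01 for the 75 genes and -0.43 for all detected genes.

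The median level of the 75 genes in a mouse was 3.79 to 4.39 in the 4 controls of day 4 and 2.81 to 3.15 in the 4 90Sr-injected mice. At day 7 the lowest, median and highest mouse were 4.09, 4.1995 and 4.34 in controls and 2.96, 3.37 and 3.79 in 90Sr-injected mice. At day 9 they were 3.68, 3.82 and 4.13 against 2.41, 2.79 and 3.22, and at day 25 they were 3.99, 4.24 and 4.50 against 2.38, 3.19 and 3.65. At day 30 they were 3.21, 4.08 and 4.40 against 2.52, 2.78 and 3.27, and there alone the groups overlapped, through control replicate 4 with 3.21. Each of the 28 90Sr-injected mice had 62 to 71 of the 75 genes below the mean of the controls of its day. Counted the same way against the other controls of their day, single control mice had 3 to 72 genes below the mean. The highest of these were 71 at day 25 and 72 at day 30, so this count alone does not set the conditions apart.

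**Figure D2:**
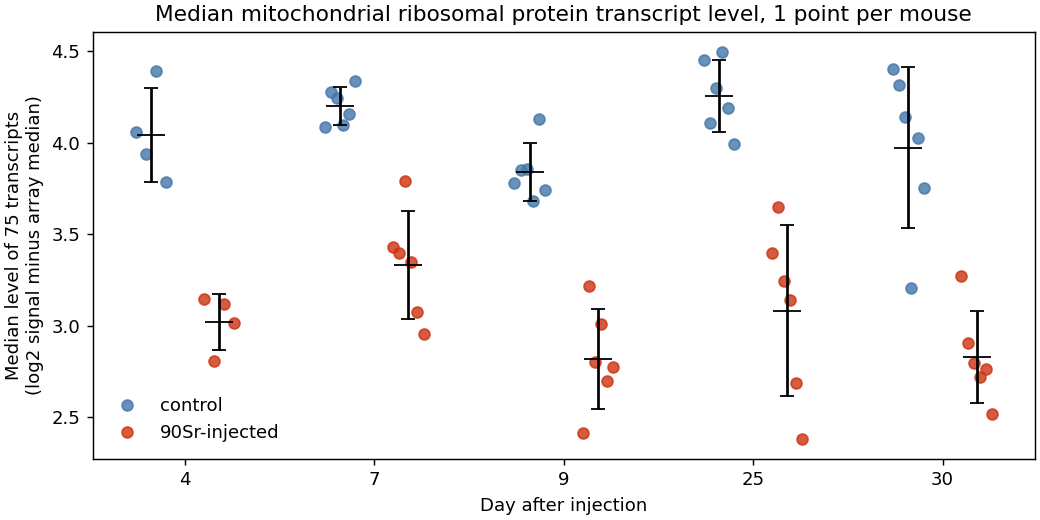
The median level of the 75 detected genes (log2 signal minus array median) in each mouse, by day, with controls in blue and 90Sr-injected mice in red. Black marks are the mean and SD of 4 mice at day 4 and 6 mice at the other days. The red points lie below the blue at each day, except that the lowest control of day 30, at 3.21, lies below the highest 90Sr-injected mouse, at 3.27.

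The medians of Mrpl and Mrps genes lay close together. The mean change over the 5 days had a median of -1.06 over the 47 Mrpl genes, with a range from -1.56 to 0.98, and of -0.997 over the 29 Mrps genes, with a range from -1.68 to 0.55. Of the 39 tested Mrpl genes 21, 18, 24, 32 and 24 were called lower at the 5 days, and of the 19 tested Mrps genes 12, 12, 10, 15 and 12. Genes numbered after a bacterial protein had medians of -0.999 (28 Mrpl genes) and -0.87 (14 Mrps genes), and the remaining genes had medians of -1.13 (19) and -1.003 (15). The latter are proteins found only in mitochondria, apart from Mrps18a and Mrps18b, extra copies of a protein with a bacterial counterpart. These differences between classes were not tested.

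Of the 19 genes called lower at all 5 days, 13 were Mrpl genes. Mrpl3, whose bacterial counterpart reaches toward the peptidyl transferase centre, had levels of 4.08, 3.92, 4.31 and 3.62 in the controls of day 4 and of 2.70, 2.19, 2.67 and 2.43 after 90Sr. At day 30 its lowest, median and highest levels were 3.002, 4.01 and 4.31 in controls and 1.65, 2.03 and 2.62 in 90Sr-injected mice, so that the groups were apart at both times. They were apart at days 7, 9 and 25 as well.
The fall of Mrpl3 was 1.21 to 1.79 on the log2 scale, that is 2.31-fold at day 7 and 3.46-fold at day 30 (SE 0.26, limma adjusted p = 8.6e-05).

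Mrpl16, a protein of the core that faces the tRNA sites in bacteria, had control levels at day 4 of 4.06, 3.87, 4.30 and 3.55 and levels after 90Sr of 2.57, 2.07, 2.45 and 2.45. At day 30 its lowest, median and highest levels were 3.06, 4.06 and 4.52 in controls and 1.22, 1.98 and 2.63 in 90Sr-injected mice. All 90Sr-injected mice were below all controls at each day, and the log2 change went from -1.04 at day 7 to -1.98 at day 30 (SE 0.28, limma adjusted p = 8.2e-05).
Mrpl11, part of the region that contacts translation GTPases, changed by -1.52, -1.05, -1.32, -1.65 and -1.65 on the log2 scale at the 5 days, again with no overlap between groups. Mrpl17 changed by -1.15 to -1.74 and Mrpl36 by -1.15 to -1.54. Of proteins without a bacterial counterpart, Mrpl50 changed by -1.29 to -1.88, Mrpl39, which resembles a threonyl-tRNA synthetase, by -1.23 to -1.61, and Mrpl42 by -1.07 to -1.71.

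Mrpl12 and Mrpl10 form the stalk that recruits translation factors. Mrpl12 had control levels of 3.71, 3.74, 4.02 and 3.61 at day 4 and levels of 2.78, 2.56, 3.01 and 2.78 after 90Sr, and at day 30 its lowest, median and highest were 3.07, 4.14 and 4.43 against 1.30, 1.93 and 2.80. No 90Sr-injected mouse reached the lowest control at any day, and the change was -0.98 at day 4, just short of 2-fold, and -2.01 at day 30 (SE 0.29, limma adjusted p = 8.5e-05). Mrpl10, which failed the variation filter, changed by -0.25, -0.50, -0.46, -0.52 and -0.23 in a fit without that filter. The difference between Mrpl12 and Mrpl10 was not tested.
Mrpl41 went from a change of -0.97 at day 4 to -1.73 at day 30, with calls at every day but the first. Mrpl44, which has a fold related to ribonuclease III, changed by -0.88 to -1.07 and was called at day 7 alone. Mrpl45, known to hold the ribosome at the inner membrane, changed by -0.92 to -1.76 and was called at days 4, 25 and 30.

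Of the small subunit, Mrps12, a protein of the decoding centre, had control levels of 4.19, 4.22, 4.54 and 4.17 at day 4 and levels of 3.20, 2.85, 3.24 and 3.30 after 90Sr. Its lowest, median and highest levels at day 30 were 3.57, 4.59 and 4.91 in controls and 2.18, 2.43 and 3.50 in 90Sr-injected mice. The groups did not overlap at any day, and the change was -1.13 at day 4 and -1.85 at day 30 (SE 0.28, limma adjusted p = 1.2e-04).
Mrps17 changed by -1.22 to -1.57, with calls at all 5 days and 1 of 6 90Sr-injected mice within the control range at day 30. Mrps26 and Mrps31 were also called at all 5 days, with changes of -1.03 to -1.58 and of -1.05 to -1.71.

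Mrps18 has 3 copies in mammals, and differences between their transcripts were not tested. Mrps18a, whose protein sits in the large subunit, was called lower at all 5 days with changes of -1.15 to -1.54. Mrps18b was called at 4 of 5 days with changes of -0.97 to -1.48. Mrps18c, the copy most like the bacterial protein, changed by -0.23, 0.03, -0.09, -0.51 and 0.04, was called at no day and failed the variation filter. Mrps30, another protein now placed in the large subunit, changed by -0.87 to -1.21 and was called at days 4 and 25. Mrps36, now placed in a dehydrogenase complex of the citric acid cycle, changed by -0.27 to 0.37, was called at no day and failed the variation filter.

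The dimmest genes carried less certain values. Mrps2 had the largest mean change of all, -1.68, but 3 of the 4 90Sr-injected mice of day 4 were well above background, and from day 7 on this held for 2, 0, 1 and 1 of the 6 mice. Its groups overlapped at day 30. At day 9, where its control mean was 1.07 and its measured 90Sr mean -0.47, it was lower by at least 1.29-fold (limma adjusted p = 4.7e-04), a bound taken against the dimmest signal well above background on each array. Mrpl28 was well above background in 0 of 6 90Sr-injected mice at days 9 and 30, and was lower by at least 1.36-fold and at least 1.89-fold. Mrps5 was in 0 of 6 at day 30, where its control mean was 0.48, and was called lower at day 4 alone, with -1.07. Mrpl1 changed by -0.70 to 0.51 and was called at no day, and the brighter Mrpl48 (-0.36 to 0.07) and Mrps33 (-0.51 to -0.18) were called at none either. Mrpl1, Mrpl48 and Mrps33 failed the variation filter, so their values come from a fit without it.

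A small group of genes had a mean change above 0. By the brightest detected probe of each gene, 7 of the 8 brightest genes had a mean change above 0 (median 0.29). Of the other 67 genes 4 did (median -1.06). This counts Mrpl4 and Mrpl27 by bright probes that were not the ones tested. The cut at 8 was not set by a rule. Next in brightness came Mrpl33, Mrps33, Mrps16 and Mrpl52, with mean changes of -0.96, -0.26, -1.41 and -1.11. In the brightest of the 4 level ranges 12 of 19 genes had a negative mean change, where 38.1% of all detected genes did. The part of probe brightness in the changes was not tested. Mrpl32, a large subunit protein that is cut to its mature form by a protease of the inner membrane, was the gene called higher. Its levels were 6.24, 6.38, 6.28 and 6.399 in the controls of day 4 and 7.15, 6.95, 6.92 and 7.00 after 90Sr. At day 9 its lowest, median and highest levels were 5.31, 5.93 and 6.21 in controls and 6.48, 7.70 and 7.85 after 90Sr, and at day 30 they were 5.34, 5.78 and 5.88 against 6.57, 7.00 and 7.28. The whole 90Sr group lay over the highest control at days 4, 7, 9 and 30, and 5 of 6 mice did at day 25. The change was 0.68, 0.79, 1.59, 0.60 and 1.25 on the log2 scale, and 3.02-fold at day 9 (SE 0.26, limma adjusted p = 2.2e-04).

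Mrpl2, which contacts the peptidyl transferase centre in bacteria, changed by -0.03, 0.14 and -0.39 at days 4, 7 and 9 and by 0.93 and 1.76 at days 25 and 30, without a call. Its lowest, median and highest levels were 7.26, 9.34 and 10.00 in the controls of day 9 and 6.17, 6.84 and 8.11 in those of day 30, and at day 30 they were 7.10, 8.69 and 10.55 after 90Sr. The groups overlapped at each day, and the controls themselves spanned 2.30 between days. Mrps21 changed by 0.18, 0.80, 1.04, 0.18 and 0.56, the groups being apart at day 7 alone, and was called at no day. Mrps23 changed by -0.57 to 0.05, while its control means ran from 6.63 at day 25 to 9.03 at day 4. The other detected genes with a mean change above 0 were Mrpl20, Mrpl30, Mrps10, Mrps14, Mrps27 and Mrps36, with means of 0.06 to 0.32, and all 6 failed the variation filter.

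**Figure D3:**
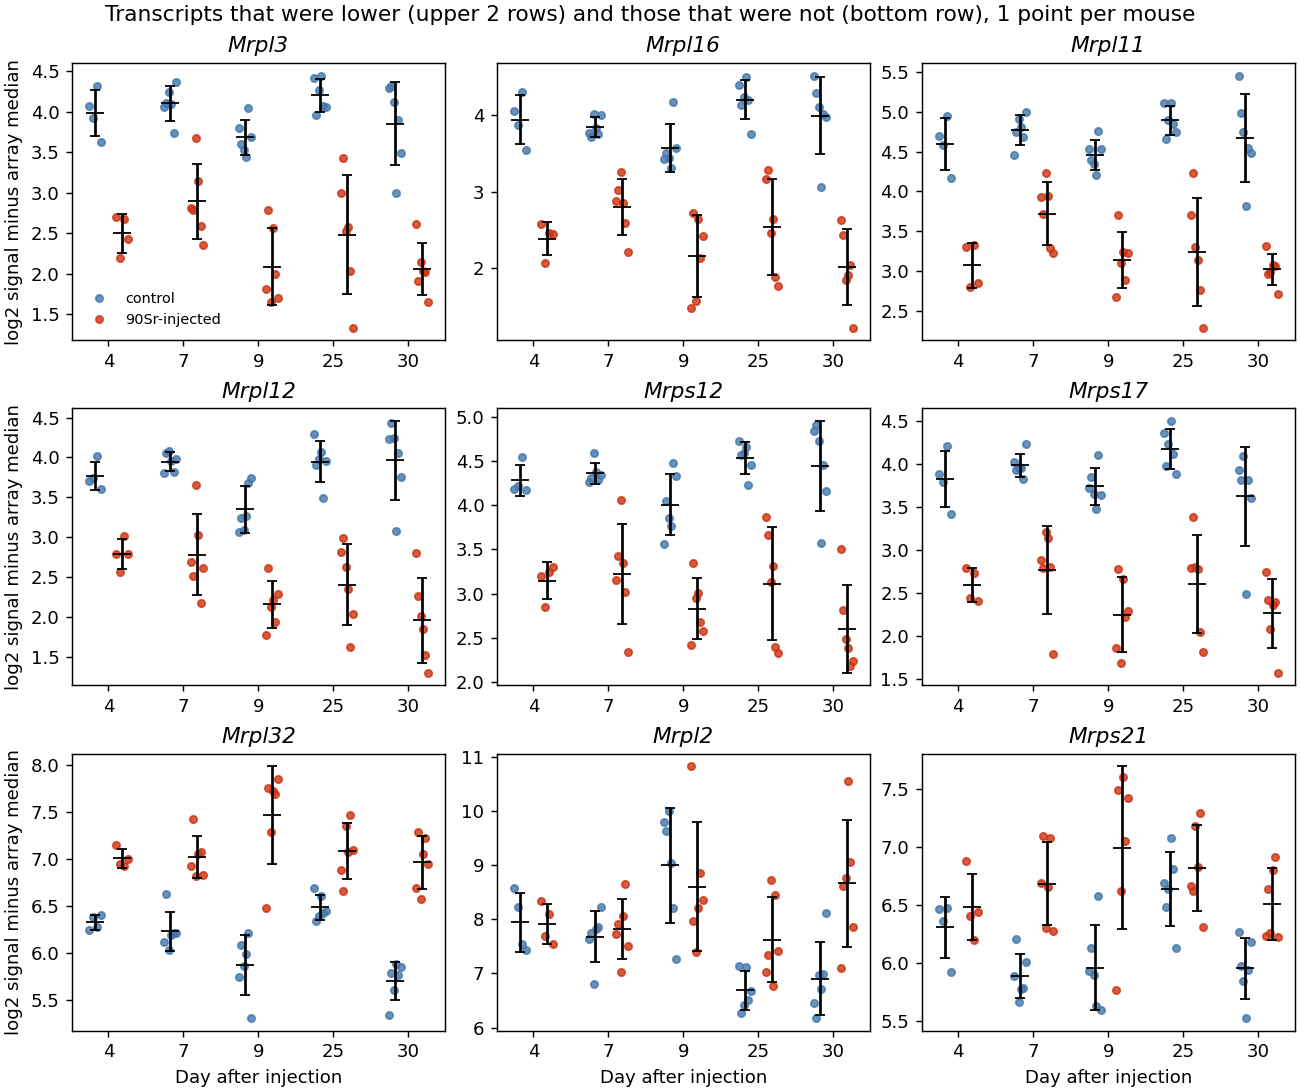
Levels (log2 signal minus array median) of 9 genes in each mouse by day, with controls in blue, 90Sr-injected mice in red, and the mean and SD in black. Mrpl3, Mrpl16, Mrpl11, Mrpl12, Mrps12 and Mrps17 lie lower in 90Sr-injected mice at each day, Mrpl32 lies higher, and in Mrpl2 and Mrps21 the colours mix at most days.

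Probes of 1 gene did not always agree. Of 21 genes with 2 or more detected probes, 17 had mean changes of the same sign in every probe, and Mrpl4, Mrpl27, Mrpl47 and Mrps2 did not. For Mrpl4, a protein at the exit tunnel, the 2 probes are shown by their first 30 bases because they gave opposite answers. The bright probe lies at chr9:20813220-20813279 and the dim probe at chr9:20812990-20813049 of build mm9, both on the plus strand.
Mrpl4 bright probe: gtgcctgcctgggatctcttttgtcacatt
Mrpl4 dim probe: ttccgtcgccttcctggaggacaagctact
The bright probe had a mean of 6.95 in controls and 7.10 in 90Sr-injected mice and changed by -0.06, 0.08, 0.15, 0.10 and 0.44. The dim probe had means of 3.31 and 2.12 and changed by -1.04, -1.19, -1.20, -1.19 and -1.27. The bright probe failed the variation filter, so the calls of Mrpl4 at all 5 days rest on the dim probe.

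The same held for Mrpl27, whose tested dim probe changed by -0.65 to -1.14 and whose brighter probe changed by -0.10 to 0.55. In Mrps7 both probes fell, by 1.32 on average for the tested dim probe and by 0.64 for the brighter probe. The tested probe of Mrps21 was also the dimmer one, and both of its probes changed alike, by 0.50 and 0.55. In Mrps23 the bright probe changed by -0.13 on average and the dim probe by -0.90. The brightest probe of Mrpl47 changed by -1.27 and another by 0.64, and the second probe of Mrps2 changed by 0.16 where the first changed by -1.68. Which probe reads the transcript better was not tested.

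**Figure D4:**
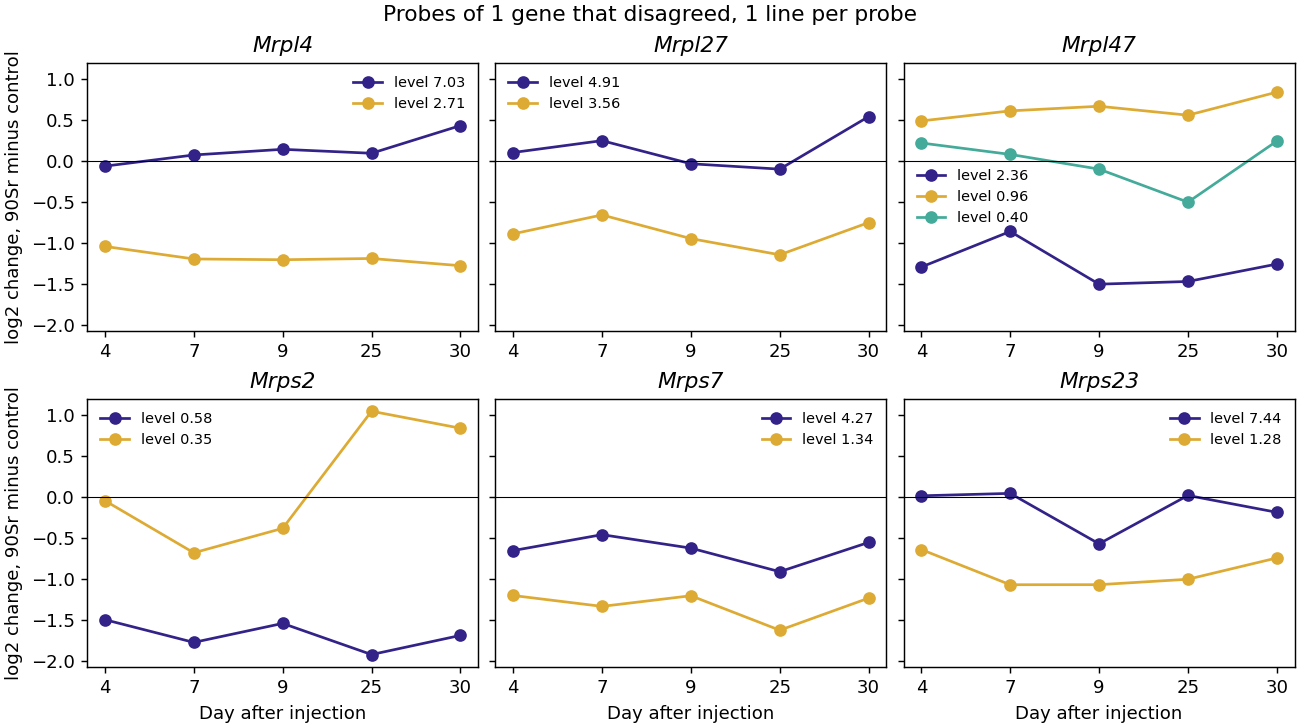
The log2 change (90Sr minus control) at the 5 days for each detected probe of 6 genes, with 1 line per probe and its mean level in the legend. In Mrpl4, Mrpl27 and Mrps23 the dimmer probe runs near -1 while the brighter one stays near 0, and in Mrps7 both lie below 0.

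Whether the size of the 90Sr effect differed between days was tested by an interaction term in a fit of all 10 groups. It passed a limma adjusted p below 0.05 in 2 of the 58 genes, against 22.5% of all genes tested. These were Mrpl32 (adjusted p = 0.0067), whose change was largest at day 9, and Mrpl2 (adjusted p = 0.047), whose change was largest at day 30. This count fell to 1 in 39 of the 56 fits that left out 1 mouse, and was 2 in 15 and 3 in 2. It was 6, 6 and 8 with arrays scaled by the 75th percentile, by quantiles or by well-measured probes, and 0 with normexp. With slide as a random block, which matters here because days lay on different slides, it was 0, so neither call was kept. Among control mice alone, 12 of the 58 genes differed between days at an adjusted p below 0.05, against 48.2% of all genes. Mrps23 and Mrpl2 had the widest spans between control days, 2.39 and 2.30 on the log2 scale, and the other 10 spanned 0.54 to 1.15.

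Most other genes of mitochondrial gene expression also had negative changes, 56 of 67 in the mean over the 5 days. Of these 67 detected genes on 5 lists, which covered mitochondrial ribosomal proteins under other names, translation factors, assembly factors, tRNA synthetases and mitochondrial transcription, 55 were tested and 17 were called lower at all 5 days (8.4% of all genes tested). The median change over the detected genes of these lists was -0.56, -1.05, -0.83, -0.74 and -1.08. Gfm1, the elongation factor that moves the ribosome along, changed by -1.53 to -2.13, and Tufm, which delivers aminoacyl-tRNA, by -1.01 to -1.54, both called at all 5 days. Tsfm, the exchange factor of Tufm, changed by -0.16 to -1.94 and was called at 1 day. Dap3, a ribosomal GTP-binding protein, changed by -0.76 to -1.15 and was called at 3 days, and Chchd1 and Ptcd3, further proteins of the small subunit, were called at all 5. Of the other ribosomal proteins under other names, Aurkaip1 was called at no day, with a mean change of 0.37. Mrp63, Ict1 and Gadd45gip1 failed the variation filter and were not tested, with mean changes of 0.27, -0.22 and -0.56. Gadd45gip1 changed by -0.39 to -0.84. Tfam, which packages mitochondrial DNA, changed by -1.40 to -1.71 and was called at all 5 days. Lrpprc, which stabilises mitochondrial messenger RNAs, changed by -1.04 to 0.08 and failed the variation filter. The others called at all 5 days were Cars2, Iars2, Pars2, Rars2, Dhx30, Mtg1, Rpusd4, Trub2, Letm1, Mtif3, Esrra and Ssbp1. Mean changes were above 0 in 11 of the 67 genes, and calls of higher were made for Mettl15 at 2 days and Wars2 at 1.

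The cytosolic ribosome was a contrast in size. Of 82 genes for its proteins, 81 were detected, 46 had a negative mean change, and their median was -0.12. Of its 30 tested genes 4, 1, 3, 10 and 10 were called lower at the 5 days, and 1 at all 5 (8.4% of all genes). Of all genes tested 23.1%, 16.1%, 17.9%, 26.5% and 21.3% were called lower at these days. At day 30 a call of higher was made for 4 of the 30 (19.7% of all genes). The difference from the mitochondrial ribosomal protein genes, and the part of probe brightness in it, were not tested.

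Markers of blood cell types moved in both directions between 90Sr-injected mice and controls. Of 12 B-cell markers 11 had a negative mean change, with a median of -2.17, and 9 of 11 tested were lower at all 5 days. Their summed linear level relative to the array median was 807 to 1956 in the 28 control mice and 162 to 759 in the 28 90Sr-injected mice, and Cd79a, Cd79b and Ms4a1 were well above background on all 56 arrays. T-cell markers were lower in 12 of 14 (median -0.76, summed level 1025 to 2175 against 595 to 3313), NK-cell markers in 7 of 8 (-0.67, 161 to 616 against 82.5 to 444), neutrophil markers in 10 of 11 (-0.54, 2826 to 7388 against 1858 to 8303) and monocyte markers in 5 of 8 (-0.50, 1152 to 3136 against 1542 to 7544). Red-cell markers were higher in 11 of 11 (0.70, 62420 to 148100 against 105400 to 225100) and platelet markers in 8 of 8 (0.28, 12390 to 28450 against 10810 to 32120). No marker on the array was below background on all arrays. The part of these shifts in the mitochondrial ribosomal protein values was not tested, and in whole blood fewer cells of a type and less RNA per cell cannot be told apart.

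The arrays came on 14 slides of 4. At day 4 each condition lay on a slide of its own, so slide and 90Sr cannot be told apart there. At each later day 1 slide held 2 mice of each condition. Within it the median change of the 75 genes was -1.03, -1.10, -0.65 and -0.82 at days 7, 9, 25 and 30. Over all detected genes it was -0.05, -0.05, -0.24 and 0.12. Of the 75 genes 65, 65, 68 and 61 were lower, and 63, 63, 64 and 64 lay below the median of all detected genes. Within these slides Mrpl3 changed by -1.498, -1.56, -0.84 and -1.43, and Mrpl32 by 0.50, 1.35, 0.33 and 1.18. With slide as a fixed block, 14, 5, 0 and 0 genes were called lower at days 7, 9, 25 and 30 (11.2%, 4.66%, 0.336% and 1.46% of all genes tested). At an unadjusted limma p below 0.05 these were 51, 51, 21 and 33, and the share of all genes at that threshold is not given here. At days 7 and 30 only 2 of the 6 90Sr-injected mice were scanned on the day of the controls. Within the shared scan day the median changes of the 75 genes were -1.02 and -0.76, and those of all detected genes 0.04 and 0.12. With scan day as a block, 36 genes were called lower at day 7 (20.2% of all genes) and 6 at day 30 (5.69%).

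Single mice also bore on the counts. Without replicate 6 of the 90Sr-injected mice at day 7, 16 genes were called lower at that day in place of 30, and 10 in place of 19 at all 5 days. The shares of all genes in that fit are not given here. The number called higher became 2 at day 9 without replicate 1 of the 90Sr-injected mice, and 2 at day 30 without control replicate 6 or without 90Sr-injected replicate 1. Control replicate 4 of day 30 stood apart from the other controls of its day, with 72 of 75 genes below their mean.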

How the data were processed

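Blood RNA was preserved in PAXgene solution, depleted of globin RNA, labelled with Cy3 and hybridised by the authors to Agilent mouse 4x44K arrays. The deposited scanner files hold the intensity of each spot with its flags, made with Agilent Feature Extraction, version 10.7 per the labels and 11.5.1.1 per the file headers. The authors' deposited series table holds processed log2 values and served as an alternative. Here the background-subtracted, processed signal was put on the log2 scale, control spots were dropped, non-uniform spots set missing, and each array centred on its median. After the 2 filters described above (14581 genes left) the brightest remaining probe stood for a gene. Each day was tested with limma 3.58.1 in R 4.3.3, a variance model of the kind named in the study's methods, with Benjamini-Hochberg adjustment over all genes tested. Each array is 1 mouse, and the number of arrays limits the precision.

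The genes and lists were chosen with earlier results of these data known. Genes named in the text follow a fixed rule: up to 10 called at all 5 days with the largest mean change, those called higher, the 3 brightest and 3 dimmest, those whose effect differed between days, 5 with the smallest change, those with probes of opposite sign, 10 chosen by function, and the called genes of the other lists. The remaining named genes were added after their values were seen. All probe accessions but 4 of the 76 genes matched RefSeq, with the same symbol. Scripts were tested on simulated data. Scaling, background correction, filters, probe choice, slide, scan day and mice left out were varied.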

Additional observations from a re-analysis of the deposited data

Results flagged for a closer look

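In some groups 1 mouse stood far from the rest for a gene, by the gap to its nearest neighbour over the range of the group. Of 320 groups of values examined, 28 were past Dixon's 95% critical value, where chance gives about 1 in 20. Each is given with its level and this ratio. Control replicate 4 of day 4 was apart for Mrpl1 (level 0.80, 0.839), Mrps36 (level 3.98, 0.890) and Mrpl4 (level 3.07, 0.842). Control replicate 3 of day 4 was apart for Mrps12 (level 4.54, 0.863). Control replicate 2 of day 7 was apart for Mrpl32 (level 6.63, 0.687). Control replicate 3 of day 7 was apart for Mrps12 (level 4.59, 0.659). Control replicate 5 of day 9 was apart for Mrpl16 (level 4.18, 0.706). Control replicate 4 of day 30 was apart for Mrpl16 (level 3.06, 0.633), Mrps17 (level 2.49, 0.698), Mrpl48 (level 5.06, 0.642), Mrps36 (level 3.20, 0.671), Mrpl4 (level 2.36, 0.629), Mrpl47 (level 1.72, 0.740), Mrps18a (level 2.71, 0.630) and Mrpl44 (level 1.78, 0.633). 90Sr-injected replicate 6 of day 7 was apart for Mrps17 (level 1.79, 0.706), Mrps18b (level 3.21, 0.676) and Mrps30 (level 2.23, 0.645). 90Sr-injected replicate 2 of day 7 was apart for Mrps5 (level 0.40, 0.642). 90Sr-injected replicate 1 of day 7 was apart for Mrpl1 (level 2.26, 0.7103). 90Sr-injected replicate 2 of day 9 was apart for Mrpl17 (level 1.51, 0.626) and Mrpl4 (level 2.66, 0.632). 90Sr-injected replicate 1 of day 9 was apart for Mrpl48 (level 3.94, 0.6252), Mrps18c (level 3.36, 0.696) and Mrps33 (level 4.62, 0.863). 90Sr-injected replicate 6 of day 25 was apart for Mrps18c (level 3.59, 0.662) and Mrpl27 (level 2.41, 0.643). 90Sr-injected replicate 1 of day 30 was apart for Mrpl41 (level 3.61, 0.767).

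In the fit without a slide term, the interaction of 90Sr with day passed for Mrpl32 (limma adjusted p = 0.00671) and Mrpl2 (0.0472). Mrpl32 changed by 0.60 to 1.59 and was called higher at days 9 and 30, and Mrpl2 changed by -0.39 to 1.76 without a call. With slide as a random block neither interaction passed, so neither was kept. These results are values without a tested explanation.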

How the results depend on the processing

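Array scaling, background correction and a slide or scan day block each moved the counts. Called lower at days 4, 7, 9 and 25 were 5, 2, 7 and 15 of 47 tested genes with the 75th percentile (7.95%, 4.94%, 6.43% and 7.9% of all genes). With quantile normalization they were 6, 4, 15 and 21 of 50 (12.8%, 7.3%, 11.1% and 11.9%), near the share of all genes at days 4 and 7. With the median of probes well above background on all arrays they were 7, 6, 17 and 20 of 49 (11.1%, 6.81%, 9.82% and 9.93%). At all 5 days these scalings gave 0, 0 and 1 in that order. With normexp, which adds an offset of 50 to every signal and left 8976 genes to test, limma called 0 lower at every day and 0 at all 5 (at unadjusted p below 0.05, 11, 33, 32, 0 and 0 were lower), and 0 higher at day 9. The share of all genes at an unadjusted p below 0.05 under normexp is not given here. Median changes were -0.50, -0.57, -0.57 and -0.66 at days 4, 7, 9 and 25 with the 75th percentile, -0.60 at day 4 with quantile normalization, -0.62 at day 4 with the well-measured probes, and -0.57, -0.11 and -0.12 at days 9, 25 and 30 with normexp. Called higher at days 4, 7, 9 and 25 were 1, 2, 2 and 2 with the 75th percentile and with the well-measured probes alike. The effect differed between days in 6, 6, 8 and 0 genes under the 75th percentile, quantile, well-measured probes and normexp, and control days in 3 under normexp. The offset of normexp is part of its construction, as is the constant shift of an array under the 75th percentile and the well-measured probes. No further cause was tested, and none for quantile normalization.

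With slide as a fixed block, 14, 5, 0 and 0 were lower at days 7, 9, 25 and 30 and 0 higher at days 9 and 30, with a median of -0.65 at day 25. Slide as a random block left 0 genes whose effect differed between days and 3 that differed between control days. Scan day as a block left 6 lower at day 30. In the authors' values the day 30 median was -1.58, with 0 higher at day 30 and 7 differing between control days. Without the variation filter 24 differed between control days, without any filter 23, and 1 between days in effect. With an adjusted p below 0.05 and no fold minimum, 54, 53 and 54 were lower at days 4, 7 and 9, 52 at all 5 days, and 1, 2, 2, 2 and 3 higher at the 5 days. The shares of all genes at this threshold are not given here. With that threshold plus 2-fold, and with 1 fit of all groups, 2 were higher at days 9 and 30.

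Mrpl4 reversed without the variation filter, and without any filter, to 0.0775, 0.15, 0.10 and 0.44 at days 7, 9, 25 and 30, since its brighter probe then stands for it. Under normexp it reversed to 0.0453, 1.06 and 1.22 at days 9, 25 and 30, and there the cause was not tested. Mrpl27 reversed to 0.59 at day 25 under normexp.

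Leaving out 1 mouse at a time gave 23 to 40 lower at day 4, 16 to 36 at day 7, 29 to 39 at day 9, 38 to 50 at day 25, 32 to 45 at day 30, 10 to 23 at all 5 days, 1 to 2 higher at days 9 and 30, and 1 to 3 whose effect differed between days. The shares of all genes with 1 mouse left out are not given here. The replicate number as a block gave 33, 27, 29, 47 and 37 lower at the 5 days (23%, 14.8%, 14.6%, 25.4% and 21.7% of all genes) and 18 at all 5. It changed 3 calls of named genes, Mrps5 at day 4, Mrps2 at day 7 and Mrpl42 at day 9, which no longer passed. The replicate numbers did not pair the mice. Over 28 same-numbered pairs, deviations from group means correlated between -0.28 and 0.33, and 7 of 28 correlated best with their own number. Signal near background limits the dim genes, above all Mrps2, Mrps5 and Mrpl28.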
